A study of Mus musculus with 7 samples.

Results

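The mouse genes Alb, Afp and Afm lie one after another on chromosome 5 and encode plasma proteins of the albumin family. Islands of trimethylated lysine 27 of histone H3 (H3K27me3) that overlap chromosome 5 from 90800000 to 91050000 (mm9), a stretch of 250.0 kb defined by its coordinates, were collected from 7 lists of islands, 1 per liver. Of the 122262 islands in the 7 lists, 0 lay in or touched this interval. The 14 islands nearest to it, 1 on each side in each liver, were therefore described with it. The livers came from CD-1 male mice, an outbred stock, aged 7 weeks. TCPOBOP, a ligand of the mouse constitutive androstane receptor, which switches on genes of drug metabolism, was injected at 3 mg/kg into 4 mice, and vehicle, 1% DMSO in corn oil, into the 3 mice they were compared with. Livers were taken 27 h later, and each was 1 library. The comparison asked whether the ligand changed where the repressive mark lies in liver.

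H3K27me3 is deposited by Polycomb repressive complex 2 and marks genes kept silent, often over wide domains and often starting from CpG-rich promoters. Albumin, from Alb, is the main protein that hepatocytes secrete into blood. Alpha-fetoprotein, from Afp, takes that place in the fetal liver and is silenced after birth, in mouse with the repressor Zbtb20. Afamin, from Afm, carries vitamin E in plasma. The interval thus holds an active and a silenced gene of the same family side by side. In the RefSeq gene order of chromosome 5, Cox18 and Ankrd17 are the coding genes just before Alb, and Albfm1, another gene of the albumin family, Rassf6 and Cxcl5 are those just after Afm. Positions of genes in mm9 were taken as about 90.89 Mb for Alb and 90.92 Mb for Afp, with Afm beyond. An mm9 annotation was not used here, so no gene was assigned to the flanking islands.

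The promoters of the 3 genes are shown because the islands are compared at these genes and Polycomb domains often start where CpG is dense. The sequences are the 250 bases before the RefSeq start of each gene in GRCm38.p6 (C57BL/6J), all on the plus strand, at chr5:90460620-90460869 for Alb, chr5:90490464-90490713 for Afp and chr5:90518699-90518948 for Afm. These positions belong to a later build and are not comparable with the mm9 positions of the islands. Capitals mark GTTAAT on either strand, letters found in binding sites of the liver factor HNF1.
Alb: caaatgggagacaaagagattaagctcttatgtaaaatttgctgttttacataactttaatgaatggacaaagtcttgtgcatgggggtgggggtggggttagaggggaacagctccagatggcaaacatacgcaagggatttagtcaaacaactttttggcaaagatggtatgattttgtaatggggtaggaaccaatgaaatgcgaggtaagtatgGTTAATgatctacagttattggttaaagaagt
Afp: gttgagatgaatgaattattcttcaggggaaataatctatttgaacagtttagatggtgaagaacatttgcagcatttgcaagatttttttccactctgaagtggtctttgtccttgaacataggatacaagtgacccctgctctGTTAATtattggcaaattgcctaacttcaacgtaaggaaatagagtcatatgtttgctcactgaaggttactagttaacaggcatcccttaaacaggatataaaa
Afm: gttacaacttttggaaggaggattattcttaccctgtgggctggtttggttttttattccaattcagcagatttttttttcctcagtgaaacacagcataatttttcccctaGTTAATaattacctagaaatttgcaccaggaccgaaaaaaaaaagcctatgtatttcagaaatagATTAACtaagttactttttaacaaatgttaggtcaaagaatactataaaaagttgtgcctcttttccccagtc

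All 3 promoters were poor in CpG. Alb held 2 CpG dinucleotides, and Afp and Afm held 1 each, against a median of 6 over 32851 mouse promoters of the same length. As few or fewer were found in 29.0% of promoters for Alb and in 18.8% for Afp and for Afm, so such promoters were common. Their G and C content was 39.2% for Alb, 36.0% for Afp and 33.2% for Afm, below the median of 52.4%. Of the neighbours named above, the promoter of Ankrd17 held 28 CpG, that of Rassf6 10 and that of Albfm1 6. Cox18 and Cxcl5 had no promoter in the set. GTTAAT, searched on both strands, was present in all 3 promoters, once in Alb and Afp and at 2 places in Afm, and in 6.43% of all promoters. It began 32 bases before the start in Alb and 105 bases before it in Afp. CCAAT was present in 3 of 3 and in 33.8% of all promoters, TATAAA in Afp and Afm and in 12.4%, and TGTTTGC, a FOXA motif, in Alb and Afp and in 4.30%. No 2 of these matches overlapped. A match of letters is not a bound site, and these motifs were not tested for binding.

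**Figure D1:**
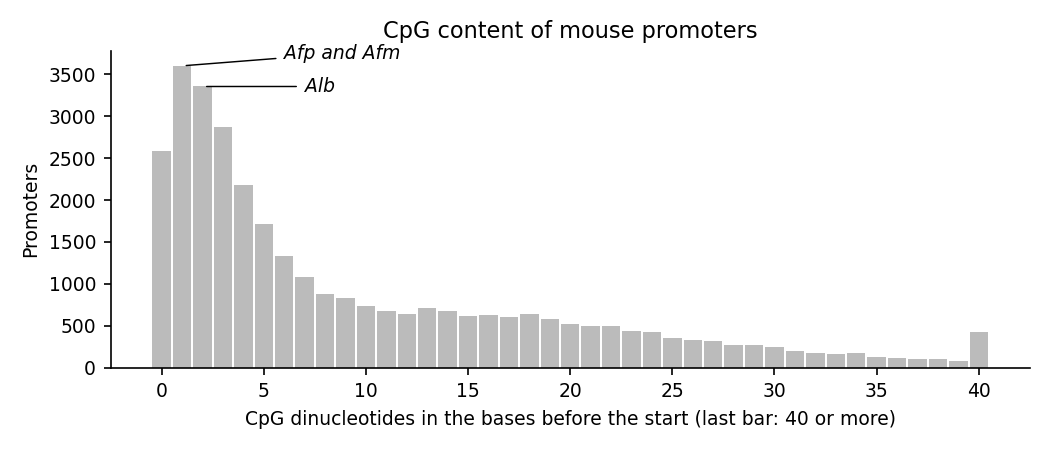
Number of mouse promoters (vertical axis) by the number of CpG dinucleotides in the 250 bases before the start (horizontal axis); the last bar holds promoters with 40 or more. Afp and Afm, with 1 CpG each, and Alb, with 2, stand in the tallest bars at the CpG-poor end.

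The lists differed in size, with overlap between the groups, and whether treatment had a part in this was not tested. The number of islands was between 16481 and 20550 in TCPOBOP livers and between 14167 and 17852 in vehicle livers. Islands spanned 537 Mb in TCPOBOP replicate 2 and in vehicle replicate 2, and 583 to 605 Mb in the other 5 livers. The lists give no read numbers, so the depth behind each is unknown here. An island is a run of 400 bp windows holding more reads than a random background, and its score is the authors' value, which grows with its length and the depth of its library. The lowest score in a list was 66.6 to 77.5 in TCPOBOP livers and 75.4 to 100.7 in vehicle livers, and the narrowest island was 1.20 to 2.80 kb over all 7. The absence of an island means that no run reached that level, not that the mark was absent. A whole liver also mixes cell types, and fewer marked cells cannot be told apart from less mark in each cell.

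Alb, Afp and Afm lay in a stretch free of H3K27me3 islands in every liver. Cover of the interval was 0 kb in each of 4 TCPOBOP livers and 0 kb in each of 3 vehicle livers, so there was nothing to test inside it. The list of TCPOBOP replicate 1, with the most islands and the lowest score kept, also had none there. With the whole interval empty, island cover could not tell Afp, which is silenced after birth, from Alb. The stretch without an island in any of the 7 livers ran from 90598401 to 91076000, was 478 kb long and held the whole interval, being 1.91 times as long.

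**Figure D2:**
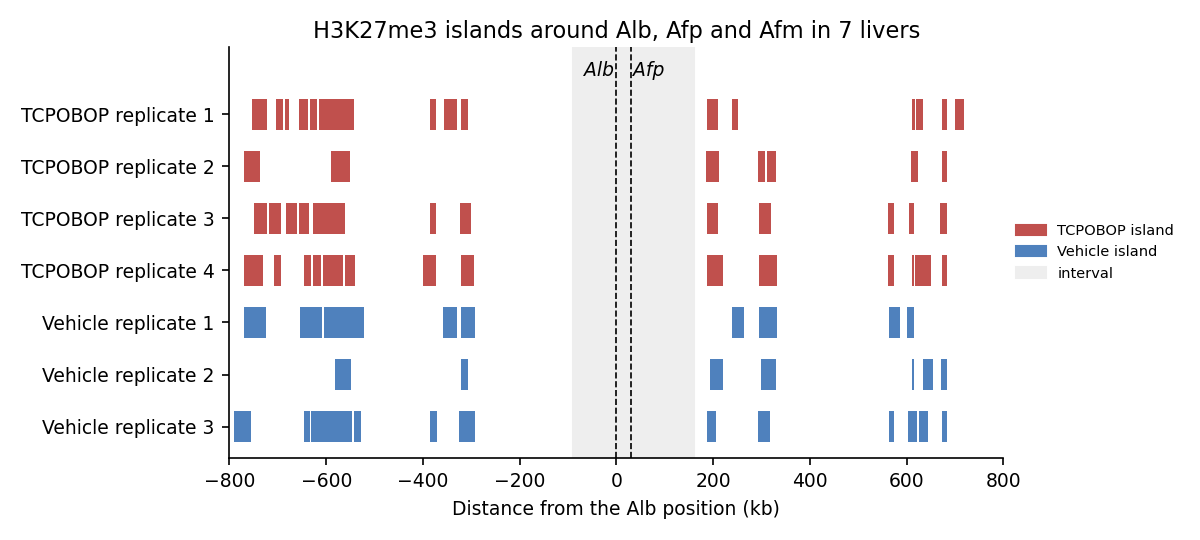
H3K27me3 islands of 7 livers (rows) by distance from the Alb position in kb (horizontal axis), with TCPOBOP livers in red above vehicle livers in blue. The grey band is the interval and the dashed lines mark Alb and Afp; 0 islands fall in the band, and TCPOBOP replicate 2 and vehicle replicate 2 have the fewest islands to the left.

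A stretch of this length without islands was in the upper part of the range but not rare. Among 17322 autosomal stretches between regions that had an island in any liver, 515 (2.97%) were as long or longer, and 32 of the 999 on chromosome 5 were longer. The median such stretch was 20.8 kb. The autosomes were also tiled in 9618 windows of the same length as the interval. Of these, 1992 (20.7%) had no island in any of the 7 livers, and on chromosome 5 the share was 21.0% of 596 windows. In single livers the share of empty windows was 28.4%, 36.0%, 30.7% and 31.4% in TCPOBOP replicates 1 to 4 and 34.7%, 35.8% and 30.6% in vehicle replicates 1 to 3. An empty interval was thus common, on chromosome 5 as on the autosomes together.

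The stretch without islands around Alb was 493.6, 736.4, 489.6 and 481.6 kb long in TCPOBOP replicates 1 to 4, against 531.2, 500.0 and 478.4 kb in vehicle replicates 1 to 3. The groups overlapped, and TCPOBOP replicate 2 stood above all other livers. The mean was 550.3 ± 124 kb in TCPOBOP livers (SD, n = 4) and 503 ± 26.5 kb in vehicle livers (SD, n = 3). The difference of 47.1 kb lay within the spread between livers (95% interval -113 to 481 kb, two-sided exact permutation p = 0.886 over 35 splits, smallest possible p 0.0286). Leaving out TCPOBOP replicate 2 made it -14.9 kb (exact permutation p = 0.50). Within each list 2.82 to 4.07% of autosomal stretches were as long or longer in TCPOBOP livers, and 4.35 to 5.12% in vehicle livers. On this share the groups did not overlap, but the difference was not tested. The share also depends on the list, and lists held from 14138 to 20512 autosomal stretches.

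**Figure D3:**
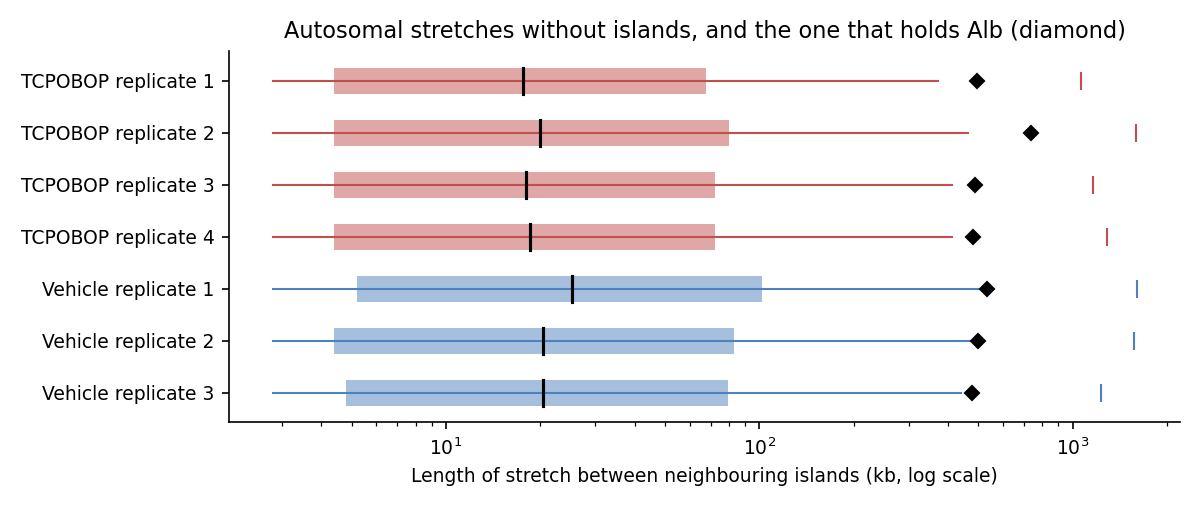
Length in kb, on a log scale, of the stretches between neighbouring autosomal islands in each of 7 livers (rows, TCPOBOP above vehicle). Boxes run from the lower to the upper quartile with the median in black, lines run from the lowest to the highest 5%, ticks mark the highest 1%, and diamonds mark the stretch that holds Alb, which is 478 to 736 kb long and lies between the line and the tick, except in vehicle replicate 1, where it lies just inside the line's end.

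On the side of lower coordinates, the distance from Alb to the nearest island was 307.2, 550.4, 301.6 and 293.6 kb in TCPOBOP replicates 1 to 4 and 291.6, 306.8 and 291.6 kb in vehicle replicates 1 to 3. TCPOBOP replicate 2 was again the liver far from the rest, and the other 6 lay close together. The means were 363.2 ± 124.9 kb in TCPOBOP livers (SD, n = 4) and 297 ± 8.78 kb in vehicle livers (SD, n = 3). The difference of 66.5 kb did not pass the test (95% interval -95.9 to 503 kb, two-sided exact permutation p = 0.571). Leaving out TCPOBOP replicate 2 brought it to 4.13 kb (exact permutation p = 0.50).

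The nearest islands on that side fell in the same merged region in 6 livers. Islands of all lists that overlapped or touched were joined into regions, and this one ran from 90564401 to 90598400. Islands covered 14, 0, 21.2 and 27.6 kb of its 34.0 kb in TCPOBOP replicates 1 to 4, and 29.6, 14.4 and 34.0 kb in vehicle replicates 1 to 3. The groups overlapped, with the lowest values in TCPOBOP replicates 1 and 2 and vehicle replicate 2. Cover was 46.2 ± 34.9% in TCPOBOP livers (SD, n = 4) and 76.5 ± 30.2% in vehicle livers (SD, n = 3), a difference of -30.3 percentage points (SE 21.9, limma adjusted p = 1). Leaving out 1 liver moved it to -14.9 without TCPOBOP replicate 2, -18.5 without vehicle replicate 3 and -47.4 without vehicle replicate 2. By total score, which grows with length, the island there ranked below its list's median in all of these livers but TCPOBOP replicate 4. It scored above 3.87%, 49.5% and 62.3% of the islands of its own list in TCPOBOP replicates 1, 3 and 4. In vehicle replicates 1 to 3 it scored above 25.2%, 27.0% and 41.7%. By score per window it stood above 18.2%, 52.3% and 51.1% in these TCPOBOP livers, and above 10.5%, 49.0% and 3.46% in the vehicle livers.

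In TCPOBOP replicate 2 the nearest island on that side, from 90299201 to 90339600, belonged to a region further out that had islands in all 7 livers. That region, from 90233601 to 90368400, held 104, 40.4, 87.2 and 96.8 kb of islands in TCPOBOP replicates 1 to 4 and 130.0, 33.6 and 111 kb in vehicle replicates 1 to 3. The lowest value of each group was that of replicate 2, the 2 lists with the least genome under islands; the part of list size in this pattern was not tested. Its cover was not called different between the groups (difference -6.97 percentage points, SE 19.1, limma adjusted p = 1).

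On the side of higher coordinates, the nearest island began 186.4, 186.0, 188.0 and 188.0 kb from Alb in TCPOBOP replicates 1 to 4, and 239.6, 193.2 and 186.8 kb from it in vehicle replicates 1 to 3. The TCPOBOP livers lay within 2.00 kb of each other and vehicle replicate 3 lay among them, so the groups overlapped, and vehicle replicate 1 was the farthest. These islands came to between 26 and 28 kb of the end of the interval in TCPOBOP livers and to between 26.8 and 79.6 kb in vehicle livers. The mean distance was 187 ± 1.05 kb in TCPOBOP livers (SD, n = 4) and 207 ± 28.8 kb in vehicle livers (SD, n = 3). The difference of -19.4 kb did not pass the test (95% interval -53.5 to 1.17 kb, two-sided exact permutation p = 0.0857). Leaving out vehicle replicate 1 brought it to -2.90 kb (exact permutation p = 0.200).

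**Figure D4:**
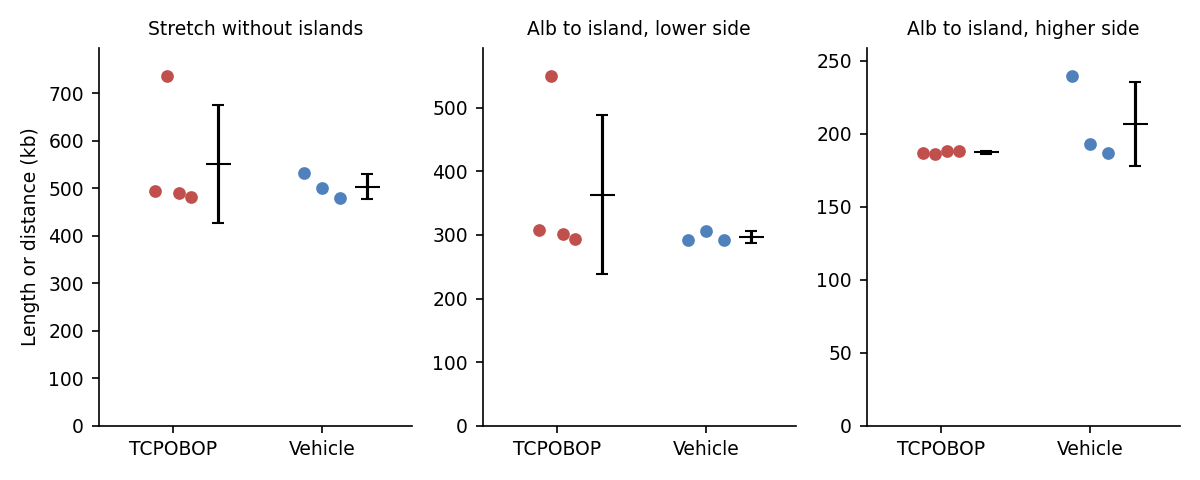
Length of the stretch without islands around Alb (left panel) and distance from Alb to the nearest island on the lower and higher side (other panels), in kb, with 1 point per liver, TCPOBOP in red to the left of vehicle in blue, and bars for the mean and SD. TCPOBOP replicate 2 stands apart at 736.4 and 550.4 kb, and vehicle replicate 1 is the farthest at 239.6 kb on the higher side.

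The region that held the nearest higher island in 6 livers ran from 91076001 to 91110400. Islands covered 24.4, 26.8, 21.6 and 32.0 kb of its 34.4 kb in TCPOBOP replicates 1 to 4, against 0, 27.2 and 19.2 kb in vehicle replicates 1 to 3. Apart from the empty vehicle replicate 1, the livers overlapped. Cover was 76.2 ± 12.8% in TCPOBOP livers (SD, n = 4) and 45.0 ± 40.6% in vehicle livers (SD, n = 3), a difference of 31.2 percentage points (SE 19.6, limma adjusted p = 1), and 8.72 without vehicle replicate 1 or 48.3 without vehicle replicate 2. In vehicle replicate 1 the first island ran from 91129601 to 91154800, in a region shared with TCPOBOP replicate 1 alone, and scored above 8.68% of its list. In the other livers the first island scored above 52.7%, 47.2%, 52.1% and 57.4% of its list in TCPOBOP replicates 1 to 4 and above 53.4% and 53.6% in vehicle replicates 2 and 3. By score per window it stood above 30.7%, 24.8%, 55.1% and 23.5% in these TCPOBOP livers, and above 36.3% and 72.6% in these vehicle livers.

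No change of island cover with TCPOBOP was detected next to the locus. The fraction under islands was compared with limma in all windows of the interval's length and in all merged regions, with Benjamini-Hochberg adjustment. Of 7193 windows it called 0 (0%) at an adjusted p under 0.05, while before adjustment 224 (3.11%) were under that level. The interval itself was not among the windows tested, since it was empty in every liver. Of the 16 windows within 2 Mb on its sides, 14 were tested, 0 were called and 1 was under that level before adjustment, with 10.4 ± 3.01% cover in TCPOBOP livers (SD, n = 4) and 3.15 ± 2.73% in vehicle livers (SD, n = 3; limma adjusted p = 1). The other 2 were empty in all livers. Of the 8 nearest merged regions, 4 on each side, 0 were called and 0 were under that level before adjustment, against 0 (0%) and 542 (3.87%) of all 13988 regions. Over all regions, limma without trend and robust variance called 13.

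The windows that flank the interval held cover in most livers. In the window just below it, cover was 10.1%, 0%, 8.48% and 11.0% in TCPOBOP replicates 1 to 4 and 16%, 5.76% and 13.6% in vehicle replicates 1 to 3. In the window just above it, cover was 15.4%, 24.5%, 18.7% and 27.2% in TCPOBOP livers and 24.8%, 23.4% and 17.6% in vehicle livers. The groups overlapped in both windows, and the differences were -4.39 percentage points (SE 3.94, limma adjusted p = 1) and -0.48 (SE 4.30, limma adjusted p = 1). Over the 1 Mb below the interval, islands covered 22.2%, 8.56%, 20.4% and 21.5% in TCPOBOP livers, and 24.3%, 6.12% and 20.6% in vehicle livers, lowest in replicate 2 of each group. Over the 1 Mb above it the range was 17.2 to 23.0% in TCPOBOP livers and 17.6 to 22.1% in vehicle livers. Chromosome 5 as a whole was 24.8 to 26.3% covered in TCPOBOP livers and 25.1 to 25.8% in vehicle livers.

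**Figure D5:**
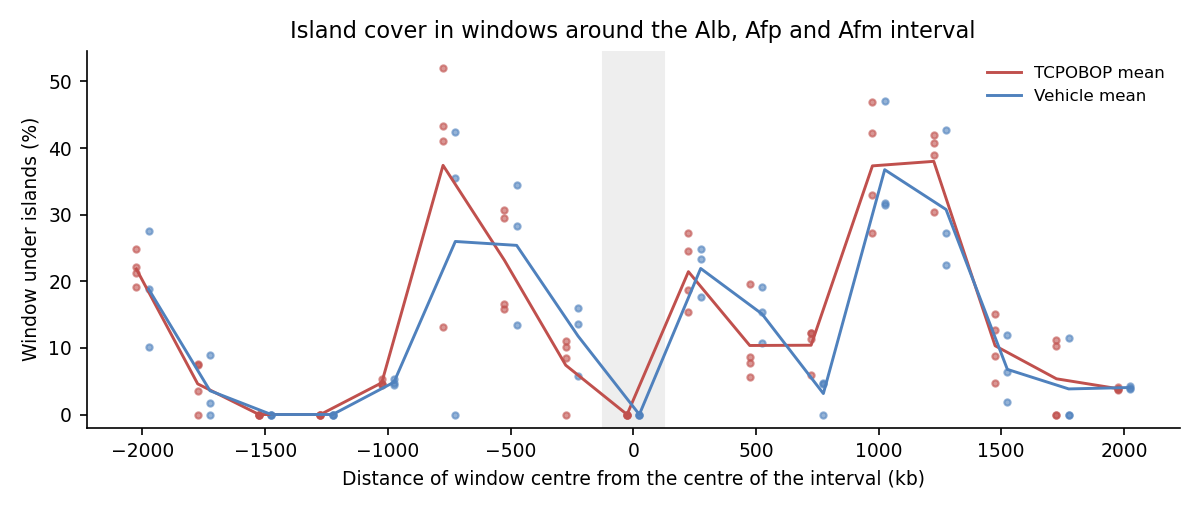
Percent of each window under islands (vertical axis) by the distance of its centre from the centre of the interval in kb (horizontal axis), with 1 point per liver and lines through the means of 4 TCPOBOP livers (red) and 3 vehicle livers (blue); the grey band is the interval. Cover is 0% in the band in all 7 livers, and the window just above it averages 21.4% in TCPOBOP livers and 21.9% in vehicle livers.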

How the data were processed

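H3K27me3 was measured by ChIP-seq, 1 library per liver. Bowtie2 2.3.2, SICER 1.1 and the build mm9 are named in GEO per the submitters' processing notes. Deposited were 1 list of islands per liver, without pooling, and a SICER score for each island made by the authors. Per the file names, the window was 400 bp, the gap 2400 bp and the E-value 100. Input control, filters and duplicate treatment are not given in the sources used here. Islands were called against each library's own background, so a change by the same factor everywhere would not show. Scores were used only within a list. No RNA was measured, so the tissue label could not be set against expressed markers.

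Distances, covers and stretches were computed per liver and compared by enumerating every split of the livers into 4 and 3 (exact permutation test, two-sided). Intervals are 95% intervals from inverting that test. Limma 3.58.1 (R 4.3.3; trend and robust variance) compared the fraction covered in windows and merged regions with an island in at least 2 livers and not the same fraction in all, with a threshold of 0.05. Windows ran to the last island of each chromosome. Both tests were tested on simulated data, for limma with less noise than between the livers, so this checked the code and not its power here. Python 3.11.15, NumPy 2.4.6 and pandas 2.3.3 were used. Promoter sequences are from RefSeq (GRCm38.p6), in which all 3 genes were matched. Genes named are the 3 members and their neighbours in the RefSeq order. The interval, the genes and the tests were chosen with earlier results of these data known. Each liver was a separate animal, so the spread holds biological and technical variation. The alternatives were leaving out each liver, dropping lower-scored islands, lists of equal length, other intervals, other limma settings and a replicate block.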

Additional observations from a re-analysis of the deposited data

Results flagged for a closer look

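Among 8 measures of the islands next to Alb, 2 set a single TCPOBOP liver apart from its group. About 1 in 20 measures would do so by chance, and these 2 share the same island edge. TCPOBOP replicate 2 had a stretch without islands of 736.4 kb, against 481.6 to 493.6 kb in the other TCPOBOP livers. Its distance from Alb to the nearest island on the lower side was 550.4 kb, against 293.6 to 307.2 kb in the others. The 3 vehicle livers had stretches of 478.4 to 531.2 kb and distances of 291.6 to 306.8 kb.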

How the results depend on the processing

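Cover of the interval was 0 kb in both groups under every alternative but the wider interval, and removing islands could not have added any. With the interval widened by its own length on both sides, to 750.0 kb, cover was 72.1 ± 15.9 kb in TCPOBOP livers and 84.3 ± 15.6 kb in vehicle livers, a difference of -12.2 kb (exact permutation p = 0.371). With islands at or above the median score of their list alone, most weak flanking islands were gone, and the difference in stretch length turned to -207 kb (means 779.9 kb in TCPOBOP and 987 kb in vehicle livers) and that in distance on the lower side to -51.8 kb (means 487 kb in TCPOBOP and 539 kb in vehicle livers), while that on the higher side widened to -155 kb (means 293 kb in TCPOBOP and 448 kb in vehicle livers); none passed the test (exact permutation p = 0.543, 0.914 and 0.514). Leaving out 1 liver, the difference in stretch length ran from -14.9 to 70.0 kb, in lower distance from 4.13 to 89.7 kb and in higher distance from -29.3 to -2.90 kb. Without 1 vehicle liver the smallest possible p is 0.0667. Without 1 TCPOBOP liver it is also above 0.05, since the groups are then equal in size and each split ties with its mirror. None of these differences could therefore have passed. Lists of equal total length gave 34.0, 71.9 and -38.0 kb. Limma was not run on lists of equal total length or on other intervals. Under each alternative it was run with, it called 0 windows. It called 13 merged regions without trend and robust variance and 1 with all regions that were not constant, and 0 under the others it was run with.

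Replicates 1 to 3 share numbers across groups. Deviations from group means over windows had r of 0.125, 0.537 and 0.169 for the same numbers, but over merged regions 0.0228, 0.218 and 0.0483, and TCPOBOP replicate 1 was closer to vehicle replicate 3 (r 0.201), so the numbers were not taken to pair the livers. The replicate block used replicates 1 to 3 alone, so TCPOBOP replicate 4 was left out. With it the differences were 70.0, 89.7 and -19.7 kb (exact permutation p = 0.75, 0.25 and 0.50, smallest possible 0.25). These are the same differences as without TCPOBOP replicate 4 and no block. Limma with the block called 0 windows and 0 regions. The nearest regions differed by -42.0 points on the lower side (limma adjusted p = 0.891) and 25.6 on the higher (limma adjusted p = 0.920), again as without that liver.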
